A study of Homo sapiens with 11 samples.

Results

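The mRNA levels of 44 DNA replication genes were followed across 4 groups of HEK293T libraries. The genes were picked by symbol from a table of 58735 listed genes, and they cover the machinery that licenses, fires, unwinds, copies and protects replication origins and forks, together with the enzymes that make its building blocks. All 44 were found in the table, and all 44 passed a filter on low counts that left 18368 genes to be tested. HEK293T is a human embryonic kidney line that carries the SV40 large T antigen, a viral protein that binds the retinoblastoma proteins and p53. Control cells (n = 3) were labelled as given a control siRNA, and the knockdown groups, siNAE1 (n = 3), siUBE2M (n = 3) and siURM1 (n = 2), were transfected with siRNA at 50, 70 and 60 nM, respectively, and harvested after 48 h. NAE1 is a subunit of the E1 enzyme that activates the ubiquitin-like protein NEDD8, UBE2M is an E2 enzyme that passes NEDD8 to cullins, and URM1 is a ubiquitin-like protein that also serves as a sulfur carrier for tRNA thiolation. The study compared the knockdowns with control to learn which genes respond to loss of URM1 and of the 2 enzymes. No siRNA dose is given for the control cells, and siRNA dose and target cannot be told apart, since each target had its own dose. The paper lists a single siRNA sequence per target, so effects of that siRNA on other genes cannot be told apart from loss of the target. The contrasts with control share its libraries. A change common to all of them cannot be told apart from a difference particular to control.

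Before S phase, the origin recognition complex loads the MCM2-7 ring, a closed hexamer of 6 different subunits, onto DNA. Kinases such as CDC7 with its activator DBF4 then allow CDC45 and the GINS complex to join the ring, which becomes the working helicase. DNA polymerase α with primase lays down primers, the RFC complex loads the PCNA clamp, and polymerases δ and ε copy the 2 strands, while RPA covers single-stranded DNA and FEN1 and LIG1 join Okazaki fragments. Many of these genes are transcribed late in G1 by E2F factors, which the retinoblastoma proteins restrain. In bulk samples, fewer cells in S phase and less mRNA per cell cannot be told apart.

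Total counts per library ranged from 11733163 to 16321391. The targeted genes followed their labels, with NAE1 mRNA at 39.0%, UBE2M mRNA at 6.34% and URM1 mRNA at 28.6% of control in the matching knockdown. Of 8 HEK293T marker genes none was at 0, and their summed level was 392 to 415 CPM (counts scaled to one common library total) in control and 519 to 680 CPM in the knockdown libraries, a difference whose part in the results was not tested. Its genes did not move as one, since 4 of the 8 rose and 1 fell with siNAE1, 2 rose and 2 fell with siUBE2M, and 6 rose and 1 fell with siURM1. Hepatocyte markers summed to at most 1.69 CPM. The 1 of them that could be tested rose with siUBE2M and siURM1 (log2 fold change 3.27 and 3.40) and was not called with siNAE1 (2.22). The other lists were low as well, with leukocyte markers at up to 5.99 CPM in sum and fibroblast markers, most of it COL1A1, at 21.5 to 26.4 CPM in control, 25.0 to 26.8 in siNAE1, 31.6 to 37.5 in siUBE2M and 26.9 to 30.1 in siURM1. All 3 fibroblast markers that could be tested rose with siUBE2M and 2 of 3 with siNAE1 and with siURM1, and their part in the results was not tested. In what follows, levels within a gene are CPM scaled by TMM, a log2 fold change (log2FC) comes from edgeR's quasi-likelihood test over all 18368 genes and is followed by its standard error (SE), and a gene was said to rise or fall when its Benjamini-Hochberg adjusted p was under 0.05. A gene that also changed by at least 1 on the log2 scale was counted as a DEG. The labels call the libraries biological replicates, and the spread between them was small, with a biological coefficient of variation of 7.06%.

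The members were abundant genes. Compared per gene length, as FPKM in control, PCNA was highest at 252 ± 9.49 (SD, n = 3), followed by MCM7 at 150 ± 2.96, MCM3 at 139 ± 3.91, RPA2 at 100 ± 5.55 and TK1 at 90.9 ± 5.18. The ranges of MCM7 (148 to 154 FPKM) and MCM3 (135 to 142 FPKM) did not overlap. At the lower end stood GINS4 at 7.16 ± 0.595, POLA2 at 7.45 ± 0.731 and PRIM2 at 7.65 ± 0.345 FPKM, which could not be told apart by their spread. FPKM depends on the listed gene length, which was 5475 bases for GINS4, 5726 for POLA2 and 4667 for PRIM2. In CPM, the lowest control means were those of POLE2 (28.7), PRIM1 (35.1) and PRIM2 (36), while GINS4 was at 39.5 and POLA2 at 43. Subunits of one complex differed widely in FPKM. RPA2 stood at 100 FPKM against 27.2 ± 1.45 for RPA1 and 20.8 ± 1.4 for RPA3, and RRM1 at 57.7 ± 1.63 against 15.1 ± 1.44 for RRM2. Between 208 counts (PRIM1) and 12969 counts (MCM7) were behind each value in a library.

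**Figure D1:**
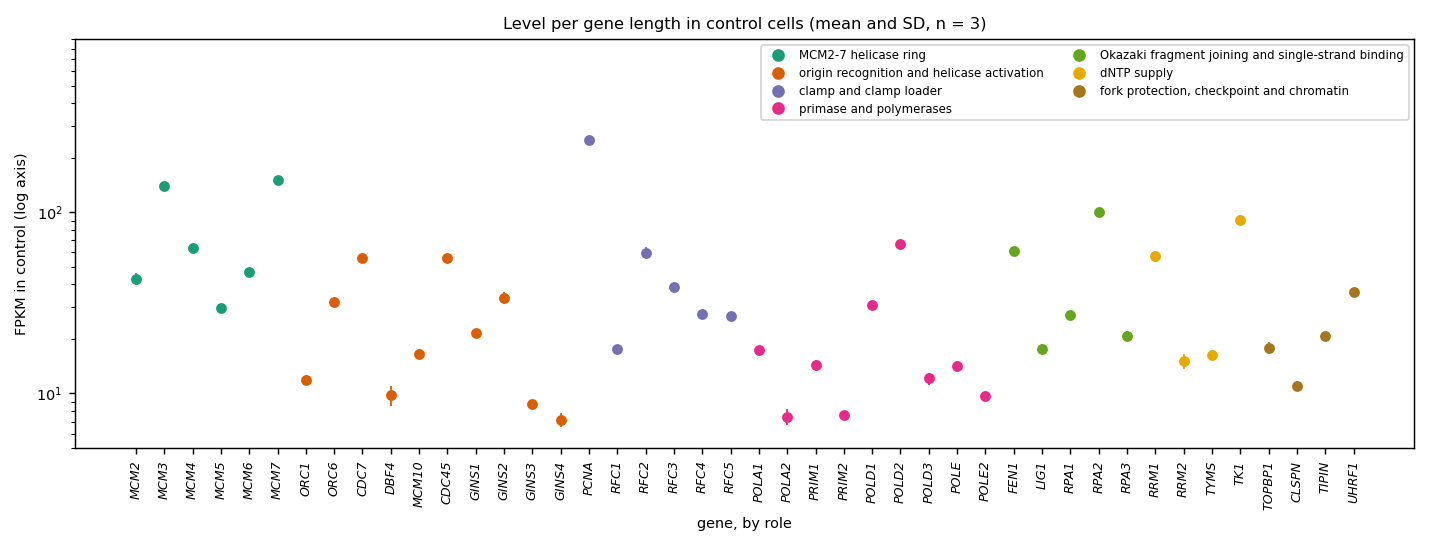
Each point is the mean FPKM of a gene in the 3 control libraries, on a log axis, with its SD as a bar, and colour gives the role. PCNA at 252 FPKM is the highest and GINS4 at 7.16 FPKM the lowest of the 44 genes.

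Promoter sequences were looked at because E2F factors are known to bind many of these promoters. RefSeq promoters of GRCh38.p14, 250 bases before to 50 bases after a start site, were matched for 38 of the 44 members. MCM4, MCM5, GINS4, POLD3, RPA2 and RPA3 had no entry. An E2F word was taken as TTTCCCGC, TTTCGCGC, TTTGCCGC or TTTGGCGC on either strand, and 18 of the 38 member promoters (47.4%) held at least 1, against 3.31% of 35116 promoters of the same length. CCAAT was found on either strand in 22 (57.9%) against 34.6%, and the GC box GGGCGG in 28 (73.7%) against 45.0%. The 3 kinds of word can share bases. The promoters of MCM3 (chr6:52284693-52284992, minus strand), MCM6 (chr2:135876394-135876693, minus strand) and MCM7 (chr7:100101348-100101647, minus strand) are shown because each held E2F words at 2 places while their mRNAs went different ways after the knockdowns, and those of RPA1 (chr17:1829755-1830054, plus strand) and POLD2 (chr7:44123499-44123798, minus strand) because they held none while their mRNAs rose (RPA1) or fell (POLD2) in each knockdown. Capitals mark E2F words, with overlapping words joined.
MCM3: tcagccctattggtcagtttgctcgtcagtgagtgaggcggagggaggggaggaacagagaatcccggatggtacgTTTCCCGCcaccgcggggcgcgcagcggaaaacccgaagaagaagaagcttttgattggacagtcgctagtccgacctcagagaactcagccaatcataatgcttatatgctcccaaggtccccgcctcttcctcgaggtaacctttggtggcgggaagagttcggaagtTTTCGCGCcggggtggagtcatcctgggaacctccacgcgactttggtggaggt
MCM6: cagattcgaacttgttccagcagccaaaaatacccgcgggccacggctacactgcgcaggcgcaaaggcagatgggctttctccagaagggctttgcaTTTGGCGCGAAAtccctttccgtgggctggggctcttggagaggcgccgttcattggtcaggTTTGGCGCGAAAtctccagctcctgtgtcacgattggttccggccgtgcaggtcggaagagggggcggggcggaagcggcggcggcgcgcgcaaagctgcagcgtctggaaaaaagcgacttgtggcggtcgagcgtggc
MCM7: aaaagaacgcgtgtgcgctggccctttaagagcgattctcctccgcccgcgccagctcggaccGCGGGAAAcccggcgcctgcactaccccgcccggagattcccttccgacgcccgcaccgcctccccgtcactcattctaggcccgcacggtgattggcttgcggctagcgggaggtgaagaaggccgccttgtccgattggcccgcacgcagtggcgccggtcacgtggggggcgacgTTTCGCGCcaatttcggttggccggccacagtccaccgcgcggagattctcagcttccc
RPA1: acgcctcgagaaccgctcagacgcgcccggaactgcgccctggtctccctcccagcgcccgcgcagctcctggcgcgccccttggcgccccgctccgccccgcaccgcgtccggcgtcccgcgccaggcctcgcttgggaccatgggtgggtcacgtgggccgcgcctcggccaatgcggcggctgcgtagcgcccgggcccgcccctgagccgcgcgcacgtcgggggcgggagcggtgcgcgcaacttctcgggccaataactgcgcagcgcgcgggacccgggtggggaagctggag
POLD2: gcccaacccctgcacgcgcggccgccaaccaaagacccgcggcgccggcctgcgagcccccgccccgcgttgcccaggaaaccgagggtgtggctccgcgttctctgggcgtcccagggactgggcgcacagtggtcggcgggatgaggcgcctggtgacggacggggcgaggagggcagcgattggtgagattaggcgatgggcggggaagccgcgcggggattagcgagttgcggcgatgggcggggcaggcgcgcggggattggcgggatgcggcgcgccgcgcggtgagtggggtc

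In MCM3 the words started 174 and 4 bases before the RefSeq start, in MCM7 187 and 9 bases before it, and in MCM6 152 and 90 bases before it. One word each was found in MCM2, PCNA, GINS1, GINS2, GINS3, RFC3, POLA1, POLA2, POLE, POLE2, LIG1, TYMS, TOPBP1, CLSPN and UHRF1. None was found in ORC1, RRM2, CDC7, CDC45, RFC4 or TK1, which says only that these letters were not in this window. Of the 18 members with a word, 3 rose and 4 fell with siNAE1 (median log2FC -0.035), 7 rose and 4 fell with siUBE2M (median 0.092), and none rose and 10 fell with siURM1 (median -0.20). Of the 20 members without one, 5 rose and 11 fell with siNAE1 (median -0.24), 7 rose and 7 fell with siUBE2M (median 0.0052), and 3 rose and 6 fell with siURM1 (median -0.14). Over all genes tested, 27.6% and 27.1% rose and fell with siNAE1, 22.7% and 22.6% with siUBE2M, and 20.8% and 20.8% with siURM1. These counts are descriptions, the 3 contrasts share the control libraries, and no test was made of the split.

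Over the members as a whole, falls outnumbered rises most with siURM1. With siURM1, 3 members rose, 19 fell and 22 were not called, against 20.8% of all genes tested that rose and 20.8% that fell. With siNAE1, 10 rose, 17 fell and 17 were not called, against 27.6% and 27.1% of all genes, a split that became 9 and 24 when libraries were scaled by their totals alone. With siUBE2M, 18 rose, 11 fell and 15 were not called, against 22.7% and 22.6%, and this split became 11 and 14 with the same scaling, which gave 3 and 28 with siURM1. The median log2FC of the 44 members was -0.085 with siNAE1 (-0.0021 over all genes tested), 0.049 with siUBE2M (0.0075) and -0.17 with siURM1 (-0.021). Scaling by library totals moved the median of all genes to -0.127, -0.050 and -0.111, respectively, and relative to it the member medians were -0.084, 0.042 and -0.15, against -0.083, 0.042 and -0.15 with TMM.

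The changes were small. No member was a DEG against control in the 3 knockdowns, where 13.9% (siNAE1), 7.11% (siUBE2M) and 7.62% (siURM1) of all genes tested were. Since the members were abundant and their changes therefore easier to detect, they were also set beside the 7457 genes whose mean level was at least the 28.0 CPM of the lowest member. Of those genes, 69.2% were called in either direction with siNAE1, 62.5% with siUBE2M and 57.7% with siURM1, against 61.4%, 65.9% and 50.0% of the members. The median size of the change, regardless of sign, was 0.28 for members and 0.31 for those genes with siNAE1, 0.21 and 0.25 with siUBE2M, and 0.19 and 0.25 with siURM1. In these 3 contrasts the median size of change was smaller for the members than for those genes, a set that includes the members and has no upper limit. Between knockdowns it was 0.22 against 0.25 (siNAE1 and siUBE2M), 0.25 against 0.23 (siNAE1 and siURM1) and 0.25 against 0.22 (siUBE2M and siURM1).

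The 44 members together made up 0.705% ± 0.00476 (SD, n = 3) of all counts in control, 0.661% ± 0.00395 (n = 3) in siNAE1, 0.733% ± 0.00495 (n = 3) in siUBE2M and 0.579% ± 0.00604 (n = 2) in siURM1. As shares of the library totals, the ranges of the 4 groups did not overlap. With totals scaled by TMM, the shares were 0.6702% to 0.6778% in control, 0.6711% to 0.6999% in siNAE1, 0.7184% to 0.7464% in siUBE2M and 0.5841% to 0.5936% in siURM1, so that siNAE1 overlapped with control and its mean lay above it. Summed FPKM was 1798 to 1859 in control, 1785 to 1867 in siNAE1, 1847 to 1980 in siUBE2M and 1545 to 1559 in siURM1, and both siURM1 libraries lay below every control library on each of the 3 scales. These sums weight each gene by its level, so that abundant mRNAs such as MCM7, PCNA and MCM3 count more than others. Mean CPM in control and siURM1 was 510 and 274 for MCM3, 449 and 350 for MCM4, and 204 and 111 for RPA2. For MCM7 it was 665 and 676, and for PCNA 373 and 355. The siURM1 sums thus do not show an even fall over the members, of which 19 fell and 3 rose.

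**Figure D2:**
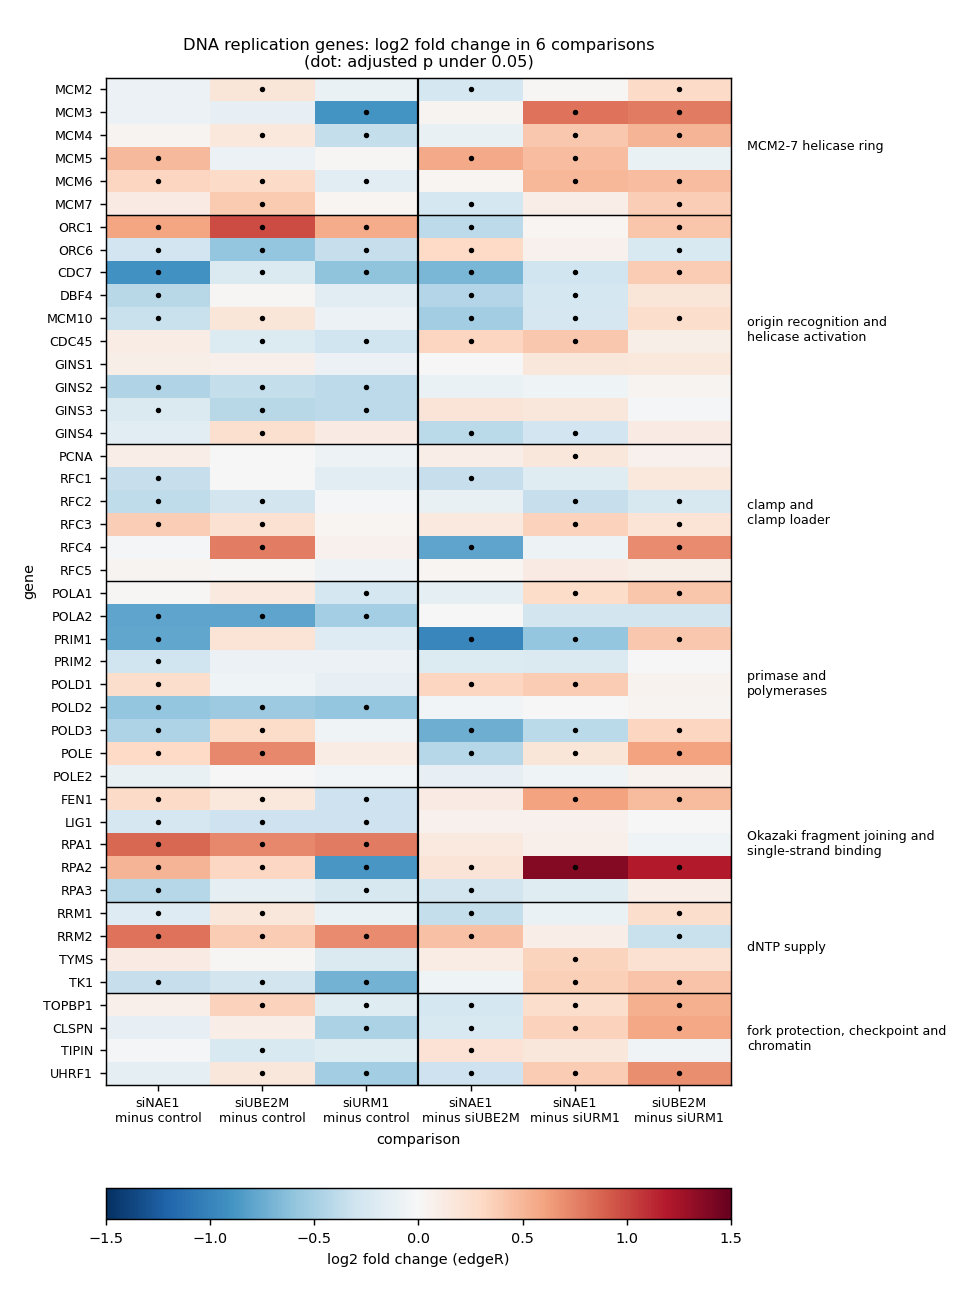
Rows are the 44 genes ordered by role, columns are the 6 comparisons, colour is log2FC from red (higher in the first-named group) to blue (lower), and a dot marks an adjusted p under 0.05. In the third column 19 genes carry a dot in blue and 3, ORC1, RPA1 and RRM2, carry one in red.

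The counts for single roles stand against the genes at or above the lowest member level. Of these, 69.2% (siNAE1), 62.5% (siUBE2M) and 57.7% (siURM1) were called. The counts also stand against the shares of all genes that rose and fell given above. With 4 to 10 genes a role, they are descriptions. Of the MCM2-7 ring with siUBE2M, 4 of the 6 subunits rose, none fell and 2 were not called, with log2FC from -0.12 to 0.39. With siURM1, none rose, 3 fell and 3 were not called, from -0.90 to 0.024. With siNAE1, 2 rose, none fell and 4 were not called, from -0.088 to 0.48. MCM3 (chromosome 6, 52264009 to 52284881), a subunit of the ring, showed the largest fall of any member with siURM1, close to that of RPA2 (log2FC -0.88). MCM3 stood at 514, 522 and 495 CPM in the control libraries, 456, 488 and 498 in siNAE1, 460, 460 and 485 in siUBE2M, and 261 and 286 in siURM1. Both siURM1 libraries lay far below the other 9, the siNAE1 libraries overlapped with control, and the siUBE2M libraries lay just under it. Its log2FC was -0.90 (SE 0.066, adjusted p = 1.4e-12) with siURM1, where the mRNA was at 53.6% of control, and it was not called with siNAE1 (-0.088) or siUBE2M (-0.12). With siUBE2M (adjusted p = 0.076), MCM3 was called lower with scaling by library totals, with both DESeq2 fits and without siUBE2M replicate 3. With siNAE1 it was called lower with scaling by library totals.

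The other ring subunits had smaller changes with siURM1. MCM2 was at 217, 194 and 225 CPM in control, 203, 191 and 206 in siNAE1, 244, 246 and 232 in siUBE2M, and 211 and 185 in siURM1. Only the siUBE2M libraries lay above every control library, and MCM2 rose there by a log2FC of 0.18 (SE 0.065, adjusted p = 0.020), a call that was lost with scaling by library totals and without control replicate 2 or siUBE2M replicate 1 (adjusted p of at most 0.14). MCM4 fell with siURM1 (log2FC -0.36, SE 0.0615, adjusted p = 1.6e-05) and rose with siUBE2M (0.16, SE 0.054, adjusted p = 0.019, lost with scaling by library totals and without control replicate 2). MCM5 rose with siNAE1 (0.48, SE 0.062, adjusted p = 5.6e-08), where it was also higher than with siUBE2M (0.57) and siURM1 (0.47). MCM6 rose with siNAE1 (0.32, SE 0.057) and siUBE2M (0.28, SE 0.057), and its fall with siURM1 (-0.18, adjusted p = 0.028) was lost under 8 of 21 alternatives. MCM7 rose with siUBE2M (0.39, SE 0.059, adjusted p = 2.1e-06) and was at 102% of control with siURM1, with an interval of the log2FC from -0.11 to 0.16. MCM3, MCM6 and MCM7, the promoters of which are printed above, thus had log2FC values of -0.90, -0.18 and 0.024 with siURM1.

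Among the 10 genes of origin recognition and helicase activation, ORC1 rose and ORC6, CDC7, GINS2 and GINS3 fell in each contrast with control. With siNAE1, 1 rose, 6 fell and 3 were not called (log2FC -0.90 to 0.59). With siUBE2M, 3 rose, 5 fell and 2 were not called (-0.58 to 0.98). With siURM1, 1 rose, 5 fell and 4 were not called (-0.60 to 0.56). ORC1 (chromosome 1, 52372829 to 52404459), the largest subunit of the origin recognition complex, rose in all 3. It was at 38.0, 35.5 and 40.1 CPM in control, 61.1, 49.2 and 60.9 in siNAE1, 78.0, 70.9 and 75.1 in siUBE2M, and 57.3 and 54.3 in siURM1. Every knockdown library lay above the control libraries and the siUBE2M libraries lay above all others. The log2FC was 0.98 (SE 0.084, adjusted p = 2.8e-11) with siUBE2M, 0.59 (SE 0.085, adjusted p = 5.4e-07) with siNAE1 and 0.56 (SE 0.093, adjusted p = 1.0e-05) with siURM1, and the difference between siNAE1 and siUBE2M was -0.39 (adjusted p = 0.00022).

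ORC6, the smallest subunit of the same complex, went the other way. It was at 140, 141 and 134 CPM in control, 116, 118 and 106 in siNAE1, 87.7, 91.1 and 98.7 in siUBE2M, and 106 and 111 in siURM1. All knockdown libraries lay below the control libraries, and the siUBE2M libraries were lowest. It fell by 0.58 on the log2 scale with siUBE2M (SE 0.066, adjusted p = 1.3e-08), by 0.35 with siURM1 (adjusted p = 0.00024) and by 0.29 with siNAE1 (adjusted p = 0.00044). ORC1 and ORC6 thus moved in opposite directions in each of the 3 knockdowns.

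CDC7 (chromosome 1, 91500893 to 91525764), the kinase that phosphorylates the MCM ring to fire origins, showed the largest fall of any member with siNAE1. It was at 188, 201 and 208 CPM in control, 110, 110 and 99.5 in siNAE1, 181, 176 and 158 in siUBE2M, and 136 and 127 in siURM1. The siNAE1 libraries were lowest, the siURM1 libraries came next, and the siUBE2M libraries lay just under control. The log2FC was -0.90 (SE 0.067, adjusted p = 6.5e-13) with siNAE1, -0.60 (SE 0.075, adjusted p = 8.6e-08) with siURM1 and -0.22 (SE 0.066, adjusted p = 0.0068) with siUBE2M, the last of which was lost without control replicate 3 or siUBE2M replicate 3. DBF4, its activator, fell with siNAE1 (-0.42, SE 0.088, adjusted p = 0.00014) and was not called with siUBE2M (0.017) or siURM1 (-0.16).

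CDC45, which joins the ring at firing, was at 158, 167 and 158 CPM in control, 166, 176 and 180 in siNAE1, 138, 130 and 150 in siUBE2M, and 133 and 130 in siURM1. The siUBE2M and siURM1 libraries lay below the control libraries, and the siNAE1 libraries overlapped with them. CDC45 fell with siURM1 (log2FC -0.29, SE 0.072, adjusted p = 0.0012) and with siUBE2M (-0.21, SE 0.064, adjusted p = 0.0080, lost without control replicate 2 or siUBE2M replicate 2). MCM10, a factor that helps activate the helicase, fell with siNAE1 (-0.33, SE 0.069) and rose with siUBE2M (0.19, adjusted p = 0.025, lost with scaling by library totals and without control replicate 1 or 2 or siUBE2M replicate 1). The 4 GINS subunits also differed among themselves. GINS2 fell in all 3 knockdowns, by 0.46, 0.35 and 0.39 on the log2 scale with siNAE1, siUBE2M and siURM1, and GINS3 fell by 0.22, 0.41 and 0.40, the first of which was lost with no filter on low counts and without control replicate 2 or siNAE1 replicate 1 or 3. GSE1, which overlaps GINS2 on the opposite strand with up to 3714 counts, also fell with siNAE1, siUBE2M and siURM1 (log2FC -0.28, -0.32 and -0.63), and its part in the values of GINS2 was not tested. GINS1 was not called in any of the 3 (log2FC -0.084 to 0.086), and GINS4 rose with siUBE2M (0.24, adjusted p = 0.030, lost under 8 of 21 alternatives).

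**Figure D3:**
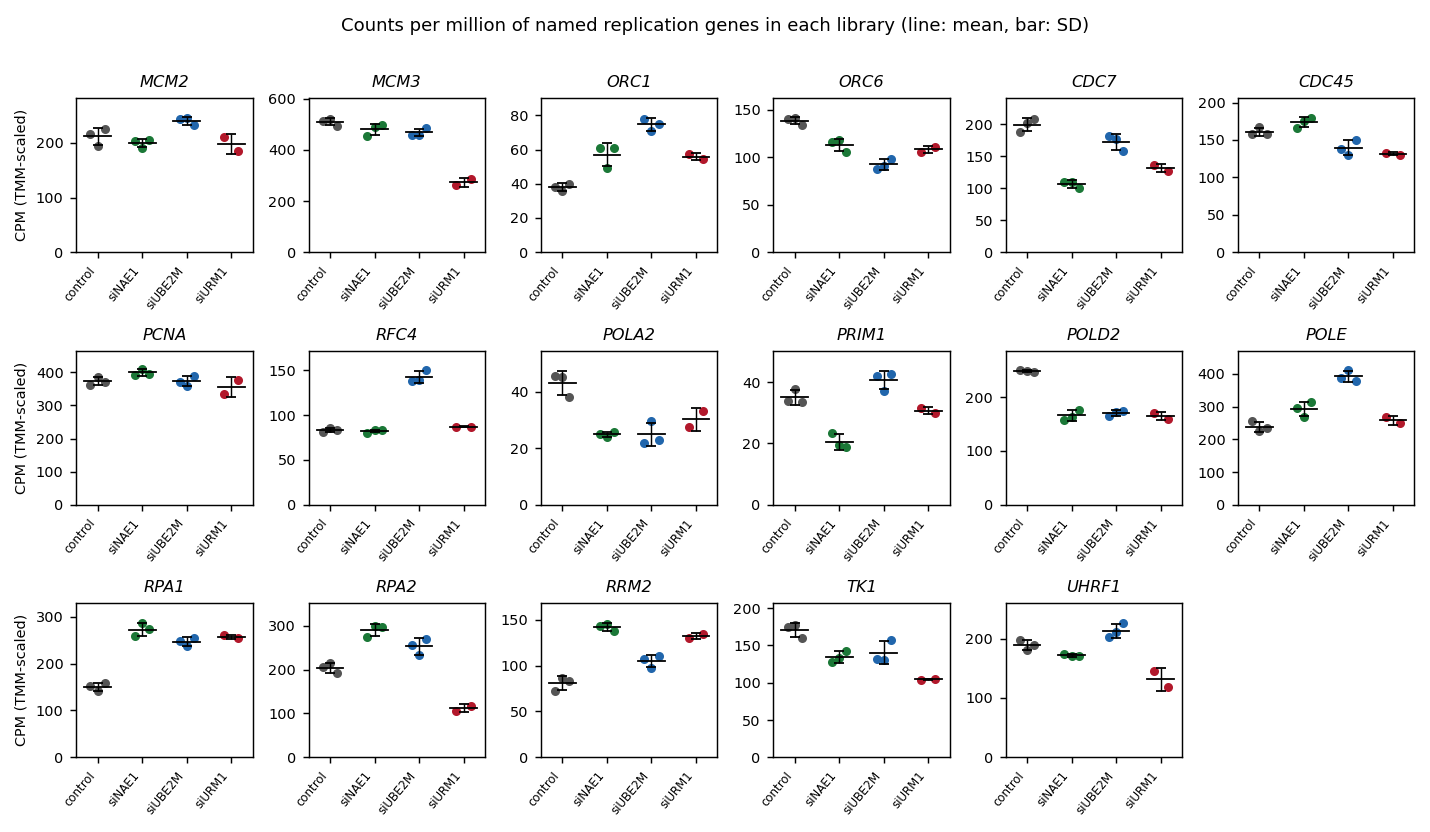
Each panel is one of 17 genes, points are libraries in CPM, the line is the group mean and the bar its SD, and every axis starts at 0. RPA1 lies higher in all 8 knockdown libraries than in control, POLD2 lies lower in all 8, and MCM3 and RPA2 lie lowest in the 2 siURM1 libraries.

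The clamp and its loader were the steadiest role with siURM1, where none of the 6 genes was called and the log2FC ranged from -0.17 to 0.059. With siNAE1, 1 rose, 2 fell and 3 were not called (-0.38 to 0.37), and with siUBE2M, 2 rose, 1 fell and 3 were not called (-0.27 to 0.77). PCNA, the sliding clamp that holds polymerases on DNA, was at 362, 386 and 372 CPM in control, 392, 411 and 396 in siNAE1, 371, 358 and 388 in siUBE2M, and 333 and 376 in siURM1. The siNAE1 libraries lay slightly above control, and the other groups overlapped. It was not called against control in the 3 contrasts, with 95% intervals of the log2FC from -0.022 to 0.22 (siNAE1), -0.12 to 0.12 (siUBE2M) and -0.21 to 0.060 (siURM1).

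RFC4 (chromosome 3, 186789880 to 186807058), a small subunit of the clamp loader, rose with siUBE2M. It was at 80.7, 85.9 and 83.7 CPM in control, 80.4, 83.1 and 83.0 in siNAE1, 138, 139 and 150 in siUBE2M, and 87.3 and 86.6 in siURM1. The siUBE2M libraries stood apart from all 8 others. The log2FC was 0.77 (SE 0.064, adjusted p = 1.7e-11) with siUBE2M, the difference between siNAE1 and siUBE2M was -0.79 (adjusted p = 1.4e-11), and that between siUBE2M and siURM1 was 0.71 (adjusted p = 3.0e-09). RFC4 is overlapped on the opposite strand by EIF4A2, which had up to 6892 counts in a library and whose log2FC was 0.78, 0.26 and 0.46 with siNAE1, siUBE2M and siURM1. RFC3 rose with siNAE1 (0.37, adjusted p = 1.2e-05) and siUBE2M (0.23, adjusted p = 0.0040), RFC2 fell with both (-0.38 and -0.27), RFC1 fell with siNAE1 (-0.35), and RFC5 was not called in any (-0.072 to 0.046), while WSB2, on its opposite strand with up to 742 counts, rose in each (0.67, 0.76 and 0.65).

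Of the 9 primase and polymerase genes, 2 rose and 5 fell with siNAE1 (log2FC -0.79 to 0.30), 2 rose and 2 fell with siUBE2M (-0.79 to 0.72), close to the 22.7% and 22.6% of all genes, and none rose and 3 fell with siURM1 (-0.59 to 0.12). POLA2 (chromosome 11, 65261762 to 65305589), the accessory subunit of polymerase α, was at 45.6, 45.3 and 38.1 CPM in control, 24.9, 24.1 and 25.7 in siNAE1, 21.9, 29.6 and 23.0 in siUBE2M, and 27.3 and 33.0 in siURM1. All 8 knockdown libraries lay below the control libraries. It fell to 57.8% of control with siNAE1 (log2FC -0.79, SE 0.106, adjusted p = 1.4e-07), to 57.9% with siUBE2M (-0.79, SE 0.105, adjusted p = 2.2e-07) and to 70.0% with siURM1 (-0.52, SE 0.116, adjusted p = 0.00053). POLA1, the catalytic subunit, was at 101% and 111% of control with siNAE1 and siUBE2M without a call, and fell with siURM1 (-0.26, adjusted p = 0.0083), which was lost without siURM1 replicate 2 (adjusted p = 0.11).

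PRIM1, the catalytic subunit of primase, fell with siNAE1. It was at 33.8, 37.9 and 33.6 CPM in control, 23.5, 19.4 and 18.7 in siNAE1, 42.0, 37.2 and 42.6 in siUBE2M, and 31.5 and 29.9 in siURM1. The siNAE1 libraries lay below all others. The log2FC was -0.77 (SE 0.099, adjusted p = 6.1e-08) with siNAE1, 0.21 (adjusted p = 0.067) with siUBE2M and -0.19 (adjusted p = 0.14) with siURM1, the difference between siNAE1 and siUBE2M was -0.98 (SE 0.099, adjusted p = 1.1e-09), and that between siNAE1 and siURM1 was -0.58 (adjusted p = 8.2e-05). PRIM2, the large primase subunit, fell with siNAE1 (-0.29, adjusted p = 0.013, lost without control replicate 2 or siNAE1 replicate 1).

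POLD2 (chromosome 7, 44114681 to 44124358), an accessory subunit of polymerase δ, had the most even fall. It was at 251, 249 and 247 CPM in control, 158, 164 and 177 in siNAE1, 165, 173 and 174 in siUBE2M, and 171 and 160 in siURM1. Control stood apart from all 8 knockdown libraries, and these overlapped with each other. As the contrasts share the control libraries, a difference particular to control cannot be told apart from a fall in each knockdown. The mRNA was at 66.8% of control with siNAE1 (log2FC -0.58, SE 0.060, adjusted p = 8.3e-10), 68.6% with siUBE2M (-0.54, SE 0.060, adjusted p = 6.3e-09) and 66.7% with siURM1 (-0.59, SE 0.068, adjusted p = 2.1e-08), and the differences between knockdowns were small, with log2FC from 0.0031 to 0.042 against siURM1 and -0.038 between siNAE1 and siUBE2M. POLD1, the catalytic subunit, rose with siNAE1 (0.26, SE 0.068, adjusted p = 0.0016, lost with scaling by library totals). POLD3 fell with siNAE1 (-0.46, SE 0.077, adjusted p = 5.9e-06) and rose with siUBE2M (0.27, SE 0.074, adjusted p = 0.0030).

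POLE, the catalytic subunit of polymerase ε, was at 255, 226 and 234 CPM in control, 296, 269 and 313 in siNAE1, 389, 411 and 378 in siUBE2M, and 267 and 249 in siURM1. The siUBE2M libraries lay above all others, the siNAE1 libraries lay above control, and the siURM1 libraries overlapped with control. It rose with siUBE2M (log2FC 0.72, SE 0.064, adjusted p = 6.4e-11) and siNAE1 (0.30, SE 0.064, adjusted p = 0.00021). POLE2, its accessory subunit, was not called in any of the 3 contrasts (-0.11 to 0.0087).

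The 5 genes of Okazaki fragment joining and single-strand binding moved in both directions. With siNAE1, 3 rose and 2 fell (log2FC -0.42 to 0.86), with siUBE2M, 3 rose, 1 fell and 1 was not called (-0.31 to 0.72), and with siURM1, 1 rose and 4 fell (-0.88 to 0.78). RPA is a heterotrimer, and its 3 mRNAs did not move together. RPA1 (chromosome 17, 1829702 to 1900082), the large DNA-binding subunit, was at 153, 141 and 158 CPM in control, 259, 286 and 274 in siNAE1, 249, 238 and 255 in siUBE2M, and 261 and 255 in siURM1. All 8 knockdown libraries lay above the control libraries, and those of siNAE1 lay just above those of siUBE2M (log2FC 0.14, adjusted p = 0.053, not called). It rose to 181% of control with siNAE1 (log2FC 0.86, SE 0.061, adjusted p = 2.1e-13), 164% with siUBE2M (0.72, SE 0.061, adjusted p = 2.7e-11) and 171% with siURM1 (0.78, SE 0.067, adjusted p = 4.3e-11). SMYD4, which overlaps RPA1 on the opposite strand with up to 1096 counts, fell with siNAE1 (log2FC -0.63) and was at -0.17 and -0.024 with siUBE2M and siURM1.

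RPA2 (chromosome 1, 27891524 to 27914746), the middle subunit, split the knockdowns. It was at 205, 215 and 193 CPM in control, 275, 299 and 297 in siNAE1, 256, 233 and 271 in siUBE2M, and 105 and 118 in siURM1. The siNAE1 and siUBE2M libraries lay above control, and both siURM1 libraries lay far below it. It rose with siNAE1 (log2FC 0.50, SE 0.065, adjusted p = 6.9e-08) and siUBE2M (0.31, SE 0.065, adjusted p = 0.00021) and fell with siURM1 (-0.88, SE 0.076, adjusted p = 5.1e-11), where it was at 54.5% of control. RPA3, the small subunit, fell with siNAE1 (-0.42, SE 0.086, adjusted p = 9.0e-05) and with siURM1 (-0.24, adjusted p = 0.036, lost under 9 of 21 alternatives), and was not called with siUBE2M (-0.15). With siURM1, RPA1 therefore rose while RPA2 and RPA3 fell.

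FEN1, which trims the flaps of Okazaki fragments, rose with siNAE1 (0.28, SE 0.066, adjusted p = 0.00046) and fell with siURM1 (-0.31, SE 0.075, adjusted p = 0.00091), and its rise with siUBE2M (0.16, adjusted p = 0.047) was lost under 16 of 21 alternatives. LIG1, the ligase that seals them, fell with siNAE1 (-0.25), siUBE2M (-0.31) and siURM1 (-0.31), with adjusted p of at most 0.0019. FEN1 is overlapped on the opposite strand by TMEM258, which had up to 1592 counts and log2FC of -0.0062, 0.18 and 0.28 with siNAE1, siUBE2M and siURM1.

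**Figure D4:**
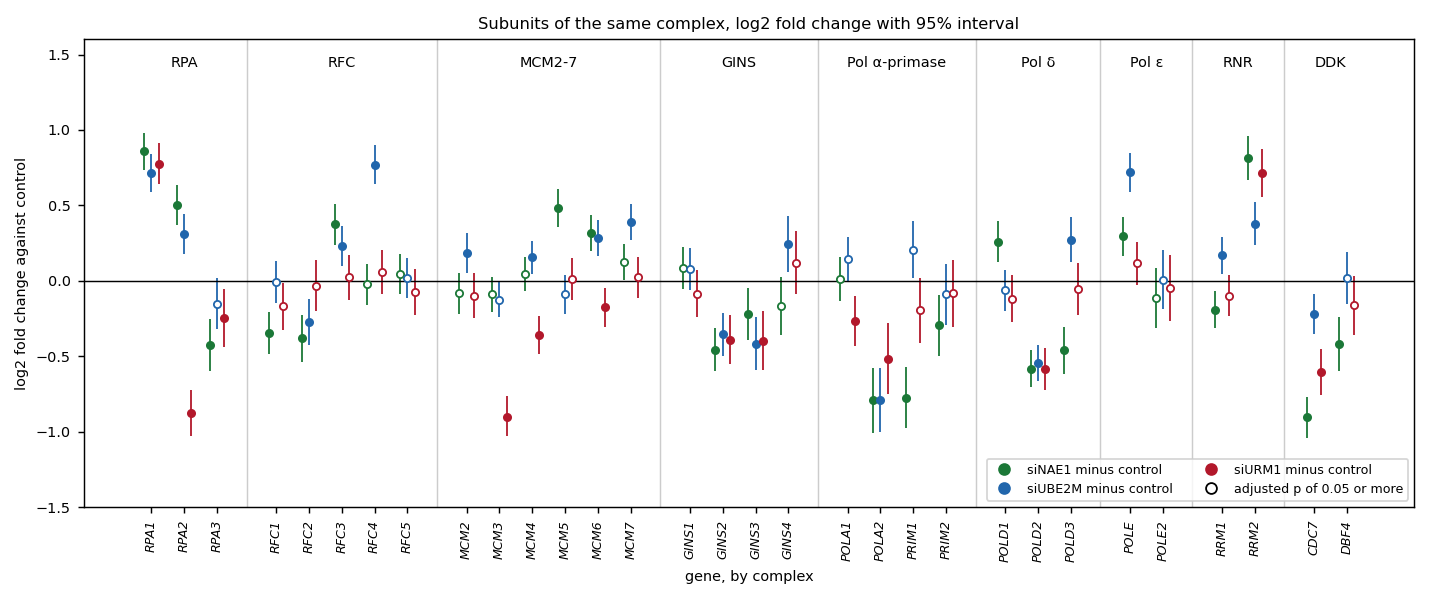
Points are log2FC against control with 95% intervals, coloured by knockdown, for the subunits of 9 complexes (RNR is ribonucleotide reductase, DDK is CDC7 with DBF4), and open points were not called. The 3 subunits of RPA lie apart from each other with siURM1, at 0.78, -0.88 and -0.24, while POLD2 lies at -0.58, -0.54 and -0.59 in the 3 knockdowns.

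Ribonucleotide reductase makes dNTPs from a large subunit, RRM1, and a small subunit, RRM2, and RRM2 is the one whose level is known to follow the cell cycle closely. RRM2 (chromosome 2, 10120698 to 10131419) was at 72.6, 86.5 and 83.7 CPM in control, 143, 146 and 138 in siNAE1, 107, 97.6 and 111 in siUBE2M, and 130 and 135 in siURM1. The 4 groups did not overlap, with control lowest and siNAE1 highest. It rose with siNAE1 (log2FC 0.81, SE 0.071, adjusted p = 1.9e-11), siURM1 (0.71, SE 0.077, adjusted p = 5.5e-09) and siUBE2M (0.38, SE 0.071, adjusted p = 4.8e-05), and siUBE2M was lower than siNAE1 (adjusted p = 5.4e-06) and siURM1 (adjusted p = 0.00092). RRM1 fell with siNAE1 (-0.19, adjusted p = 0.0079, lost without siNAE1 replicate 3), rose with siUBE2M (0.17, adjusted p = 0.020, lost with scaling by library totals and without control replicate 1) and was not called with siURM1 (-0.097).

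TK1, the thymidine kinase of the salvage route, was at 175, 178 and 160 CPM in control, 128, 133 and 143 in siNAE1, 132, 131 and 158 in siUBE2M, and 104 and 105 in siURM1. All knockdown libraries lay below the control libraries, and the siURM1 libraries were lowest. It fell with siURM1 (log2FC -0.70, SE 0.081, adjusted p = 1.7e-08), siNAE1 (-0.35, SE 0.071, adjusted p = 0.00011) and siUBE2M (-0.28, SE 0.070, adjusted p = 0.0014). TYMS, which makes thymidylate from dUMP, was not called in any of the 3 (-0.21 to 0.13). ENOSF1, on the opposite strand of TYMS with up to 1329 counts, fell in all 3 (log2FC -0.90, -0.57 and -0.50).

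None of the 4 genes of fork protection, checkpoint and chromatin was called with siNAE1 (-0.14 to 0.072), 2 rose and 1 fell with siUBE2M (-0.23 to 0.34), and 3 fell with siURM1 (-0.52 to -0.18). UHRF1, which brings maintenance DNA methylation to newly copied DNA, was at 198, 180 and 189 CPM in control, 174, 171 and 170 in siNAE1, 203, 211 and 226 in siUBE2M, and 145 and 118 in siURM1. The siURM1 libraries were lowest and the siUBE2M libraries highest, without overlap with control. The siNAE1 libraries also lay below every control library. With siNAE1 UHRF1 was not called (adjusted p = 0.079), but it was with scaling by library totals and in edgeR and DESeq2 fits of 2 groups. It fell with siURM1 (log2FC -0.52, SE 0.077, adjusted p = 1.5e-06), and its rise with siUBE2M (0.18, adjusted p = 0.033) was lost under 7 of 21 alternatives. CLSPN, the mediator of the ATR checkpoint, fell with siURM1 (-0.47, SE 0.099, adjusted p = 0.00023). TOPBP1, which activates ATR, rose with siUBE2M (0.34, SE 0.064, adjusted p = 5.2e-05), and its fall with siURM1 (-0.19, adjusted p = 0.038) was lost under 11 of 21 alternatives. TIPIN, a fork protection factor, fell with siUBE2M (-0.23, adjusted p = 0.013, lost without control replicate 2 or siUBE2M replicate 2).

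The knockdowns were also compared with each other. These contrasts share libraries with those above and are given beside them, not as further evidence. With siUBE2M against siURM1, 21 members were higher, 3 were lower and 20 were not called, against 16.7% and 18.3% of all genes tested, and the median log2FC was 0.19 (0.0075 over all genes). With siNAE1 against siURM1, 17 were higher, 7 lower and 20 not called, against 19.5% and 19.1%, with a median of 0.10 (0.0014). With siNAE1 against siUBE2M, 7 were higher, 17 lower and 20 not called, against 22.7% and 21.6%, with a median of -0.10 (-0.017). Among the 7457 genes at or above the lowest member level, 50.5%, 53.8% and 60.5% were called in these 3 contrasts, and 54.5% of the members in each. The count of lower members fell from 3 to 1 in siUBE2M against siURM1 without siUBE2M replicate 1 or siURM1 replicate 2, and from 7 to 4 in siNAE1 against siURM1 without siURM1 replicate 2.

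RPA2 was the one member that was a DEG in these contrasts, where DEGs made up 5.41% (siUBE2M against siURM1), 6.76% (siNAE1 against siURM1) and 7.84% (siNAE1 against siUBE2M) of all genes tested. It was higher in siNAE1 than in siURM1 by a log2FC of 1.38 (SE 0.077, adjusted p = 2.8e-15) and in siUBE2M than in siURM1 by 1.19 (SE 0.077, adjusted p = 1.1e-13). MCM3 followed, with 0.81 and 0.78 (SE 0.066 each). UHRF1 (0.70), RFC4 (0.71), POLE (0.60), CLSPN (0.58), TOPBP1 (0.53), MCM4 (0.51), FEN1 (0.47) and MCM6 (0.46) were the next highest in siUBE2M against siURM1, with adjusted p of at most 2.5e-05. The 3 lower members were RRM2 (-0.34), RFC2 (-0.24) and ORC6 (-0.23). Against siUBE2M, the lowest members in siNAE1 were PRIM1 (-0.98), RFC4 (-0.79), POLD3 (-0.73) and CDC7 (-0.68), and the highest was MCM5 (0.57, adjusted p = 4.3e-09).

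**Figure D5:**
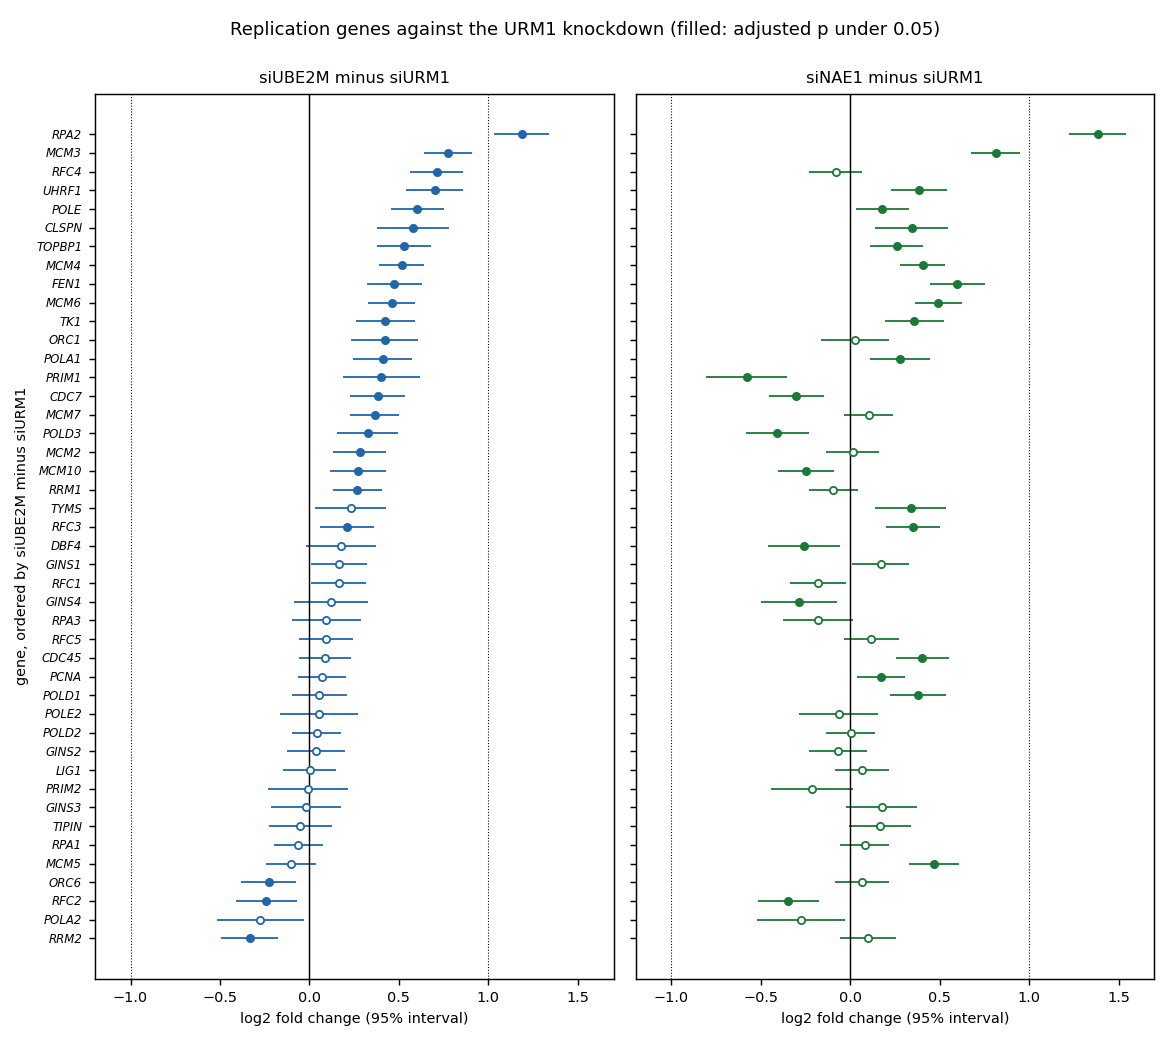
Points are log2FC of siUBE2M (left) and siNAE1 (right) against siURM1 with 95% intervals, genes are ordered by the left panel, dotted lines mark -1 and 1, and open points were not called. RPA2 at 1.19 and 1.38 is past the right dotted line in both panels, and 21 genes on the left and 17 on the right are called higher.

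Other genes of the same processes were read from lists that were chosen with earlier results of these data known. Their counts stand against the 27.6% and 27.1% of all genes tested that rose and fell with siNAE1, 22.7% and 22.6% with siUBE2M, and 20.8% and 20.8% with siURM1. Of 42 further replication factors, 9 rose and 15 fell with siNAE1, 21 rose and 10 fell with siUBE2M, and 4 rose and 15 fell with siURM1, with median log2FC of -0.044, 0.19 and -0.089. CDT1, which loads the MCM ring, rose with siUBE2M (log2FC 0.93, SE 0.062) and siURM1 (0.45, SE 0.069). CDC6, its partner in loading, fell most with siURM1 (-0.67) after POLE3, a small subunit of polymerase ε (-0.86). With siNAE1 the lowest was DUT, the dUTPase (-1.10, a DEG), and the highest were SLBP, the histone mRNA binding protein (0.80, and 0.65 with siURM1), and GMNN, the inhibitor of CDT1 (0.59). With siUBE2M the lowest were POLE4 (-0.58) and ASF1A (-0.54), and RNASEH2A rose from a low level of 2.84 CPM (0.67, adjusted p = 0.032).

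Of 34 genes of the E2F network and G1/S control, 5 rose and 14 fell with siNAE1, 9 rose and 13 fell with siUBE2M, and 6 rose and 8 fell with siURM1, with medians of -0.16, -0.12 and -0.095. The highest called genes were CDKN2C (0.91 with siNAE1 and 1.34 with siUBE2M), CDKN1A (0.84 with siNAE1), CDKN2D (0.96) and CCND1 (0.93) with siURM1, and LIN37 from 2.26 CPM (0.87 with siUBE2M). The lowest were E2F8 (-0.71 with siNAE1 and -0.69 with siURM1), LIN54 (-0.67 with siNAE1), CCND2 (-0.70) and E2F6 (-0.47) with siUBE2M, and MYBL2 (-0.71 with siURM1). CDKN1A encodes p21, an inhibitor of CDKs that also binds PCNA, and it was at -0.16 with siUBE2M and -0.10 with siURM1, neither of which was called.

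Of 28 checkpoint and p53 genes, 12 rose and 10 fell with siNAE1, 8 rose and 7 fell with siUBE2M, and 8 rose and 11 fell with siURM1, with medians of 0.081, -0.046 and -0.19. GADD45A was the lowest in each (-1.36, -1.11 and -1.15), with XPC (-0.90 with siNAE1), SESN2 (-0.69 with siUBE2M) and DDB2 (-0.94 with siURM1) next. The highest were GADD45B (1.63) and BTG2 (1.56) with siNAE1, RPS27L (0.77) and RAD9A (0.62) with siUBE2M, and GADD45B (0.82) and CHEK2 (0.52) with siURM1. Of 29 G2/M genes, 15 rose and 5 fell with siNAE1, 20 rose and 3 fell with siUBE2M, and 8 rose and 6 fell with siURM1, with medians of 0.17, 0.38 and 0.038. MKI67, the proliferation marker, rose in each (0.71, 1.44 and 0.35 with siNAE1, siUBE2M and siURM1), as did KIF20A (0.98, 0.72 and 0.34), CCNB1 (0.58, 0.69 and 0.68) and PTTG1 (0.43, 0.39 and 0.45), and PRC1 rose from 2.19 CPM with siUBE2M (0.85). HMMR fell in each (-1.56, -0.46 and -0.92), CENPE with siNAE1 (-0.60) and siUBE2M (-0.44), and CCNB2 with siURM1 (-0.41). The part of a shift in cell cycle phases in the values of the members was not tested.

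Reads of some members can be shared with other genes. Of the 44, 21 are overlapped on the opposite strand by another listed gene and 14 on the same strand. The libraries were made with a kit that marks strand, but the strand setting of the counting is not given in the sources used here, so the reads of opposite pairs such as RFC4 and EIF4A2 or GINS2 and GSE1 may not have been kept apart. MCM2 is overlapped on the opposite strand by TPRA1, with up to 775 counts and a log2FC of 0.20 with siNAE1. PRIM1 (208 to 617 counts) is overlapped by HSD17B6 (up to 257) and DBF4 (364 to 818) by SLC25A40 (up to 394). The opposite-strand partners of RPA3 (590 to 1178 counts) had up to 323 counts. The part of these partners in the falls of PRIM1, DBF4 and RPA3 was not tested. For 9 members a listed gene is a copy by name, and none of these copies had more than 3 counts in a library. MCM3, ORC1, ORC6, CDC7, MCM10 and CDC45 have no listed overlap on the opposite strand.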

How the data were processed

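Total RNA of 11 HEK293T samples was sequenced as strand-specific poly(A) libraries. According to the submitters' processing notes and the methods, the authors ran fastp for read cleaning and HISAT2 2.0.5 for alignment, on the GRCh38 build, and the deposited raw counts per gene came from featureCounts 1.5.0-p3. The authors also deposited FPKM values, the counts scaled by depth and gene length. Both tables were used, with no column left out.

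Counts were filtered (filterByExpr), scaled by TMM and fitted with edgeR 4.0.16 (R 4.3.3), using 1 quasi-likelihood model of 4 groups over 18368 genes and Benjamini-Hochberg adjustment with a threshold of 0.05. Alternatives were other scalings, no filter, DESeq2 1.42.0, fits of 2 groups, a replicate block, limma 3.58.1 on log2(FPKM + 1) or log2(FPKM + 0.1), and leaving out each library. Total counts ranged from 11733163 to 16321391, and the lowest member count was 208. Values in every library are given for members that were DEGs in any of 6 comparisons, for the 3 highest and 3 lowest called members by log2 fold change in each knockdown against control, and for PCNA, RRM2, MCM2, CDC45 and UHRF1. From each other list the 2 highest and 2 lowest called genes are named, except 1 that is not reported here. The members and lists were chosen with earlier results of these data known. Promoters came from RefSeq (GRCh38.p14) and were searched on both strands. No 2 libraries held the same values, with at least 26105 genes differing in each of 55 pairs.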

Additional observations from a re-analysis of the deposited data

How the results depend on the processing

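Of 5544 member values over 21 alternatives and 6 comparisons, 5309 stayed on their side of the threshold, 170 lost a call and 65 gained one. No called value changed sign, while some uncalled values did. The 21 alternatives that give calls, which leave out the removal of a length trend, kept 23 of 27 calls with siNAE1, 19 of 29 with siUBE2M and 18 of 22 with siURM1 against control, and 20, 15 and 19 of 24 each in siNAE1 against siUBE2M, siNAE1 against siURM1 and siUBE2M against siURM1. Scaling by library totals changed most: the median log2FC of the members became -0.211, -0.0081 and -0.262 for siNAE1, siUBE2M and siURM1 against control, and -0.171, 0.066 and 0.226 for the contrasts between knockdowns in the order above, 11 members rose with siUBE2M against 18, and 1 member became a DEG with siNAE1 (CDC7) and 1 in siNAE1 against siUBE2M (PRIM1). That scaling also shifted the median of all genes, and relative to it the member medians against control were -0.0839, 0.0417 and -0.152.

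With a length trend removed, the medians were -0.0452, 0.0826 and -0.14 against control, -0.0727 in siNAE1 against siUBE2M and 0.166 in siUBE2M against siURM1. Relative to the median of all genes, which this also moved, they were -0.11, 0.064 and -0.158 against control (-0.0834, 0.0418 and -0.151 as reported), -0.109 and 0.204. Fits of 2 groups gave -0.103 (siNAE1, edgeR), -0.16 (siURM1, DESeq2) and 0.0882 (siNAE1 against siURM1, edgeR), and limma on log2(FPKM + 1), with or without its filter, gave 0.177 in siUBE2M against siURM1. Where no cause is named, the cause was not tested.

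Leaving out 1 library gave medians from -0.1 to -0.0594 (siNAE1), 0.0404 to 0.0864 (siUBE2M) and -0.185 to -0.149 (siURM1) against control, and from -0.129 to -0.0562, 0.0909 to 0.128 and 0.171 to 0.21 between knockdowns. The DEGs ranged from 0 to 1 with siUBE2M (ORC1 without control replicate 3 or siUBE2M replicate 2) and from 0 to 1 in siNAE1 against siUBE2M (PRIM1 without siNAE1 replicate 1 or siUBE2M replicate 2). Lower members ranged from 4 to 8 in siNAE1 against siURM1 and from 1 to 4 in siUBE2M against siURM1. Without a siURM1 library, the other one was assumed to vary like the other groups.

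Deviations of same-numbered libraries from their group means correlated at -0.0657 to 0.0787, so the numbers were not taken as pairs. With the replicate block, the higher and lower members were 10 and 17, 17 and 11, 3 and 17, 7 and 17, 15 and 7, and 21 and 3 in the 6 contrasts, with a median of 0.0844 in siNAE1 against siURM1. The lowest count of a member in a library was 208 (PRIM1), and SE exceeded 0.1 in some contrasts for POLA2, PRIM1, PRIM2, POLE2 and GINS4. The summed level of the siNAE1 members against control, -6.18% as a share of library totals, was 2.28% with TMM scaling and 1.04% in summed FPKM, both chosen after seeing the data, and siUBE2M and siURM1 kept their direction.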
